A study of Mus musculus with 7 samples.

Results

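ATF4 and its amino-acid response genes were followed in MIN6, an insulin-secreting line of mouse beta cells. The set holds 34 genes: ATF4 itself, its partner and downstream transcription factors, and target genes for amino-acid synthesis, uptake, tRNA charging and stress feedback. These genes were listed for their part in the ATF4 and amino-acid response. The set was chosen from the arrays' 45616 genes because most of its members moved together between replicates 1 and 2 and the other arrays. That contrast is therefore a description here and carries no test. Of the 34 genes, 32 passed the filter on dim probes, and each of these 32 was well above background on all 7 arrays. Fgf21 was well above background on 1 array and Gdf15 on none, so neither of these secreted stress hormones gave a usable level. Among all genes, 22102 passed that filter.

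The study asks what a polysaccharide extract of Maidong, here MPE, does to gene expression in these cells. One group had the vehicle, phosphate-buffered saline (PBS), for 3 days and gave 3 arrays. The other had MPE for 3 days and gave 4 arrays. The labels name no genetic change and the same serum-containing medium for both groups, 1 Cy3-labelled RNA sample was hybridized per array, and the labels do not state the MPE concentration behind the arrays. Whether the replicates of a group were grown as separate cultures is not stated either, and a p-value here reflects only the spread among these samples, possibly a technical one. All arrays shared 1 slide, with vehicle in row 1 and MPE in row 2, so treatment and slide row cannot be told apart. Replicates 1 and 2 of both groups lay in slide columns 1 and 2, and the other arrays in columns 3 and 4, so the contrast of replicates 1 and 2 with the others cannot be told apart from slide column. The arrays detected 29501 to 30122 of 56605 probes as well above background in vehicle and 27944 to 28514 in MPE, without overlap. The raw signal of negative-control spots averaged 29.2 to 30.8 in vehicle and 32.4 to 33.1 in MPE. Outlier spots numbered 55 to 80 in vehicle and 91 to 120 in MPE. The part of these differences in the comparison of treatments was not tested. The 75th percentile of signal ranged from 324 to 419. Of 16 beta-cell markers, 15 were well above background on all arrays, the exception being the glucose transporter gene Slc2a2, which was so on none.

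ATF4 is the transcription factor of the integrated stress response. When amino acids run short, unfolded protein builds up in the endoplasmic reticulum (ER) or heme is lacking, kinases phosphorylate the translation factor eIF2. General protein synthesis then falls while the ATF4 mRNA is translated more, and ATF4 with C/EBP partners switches on genes that make, import and load amino acids. Beta cells carry a heavy load of proinsulin synthesis, and this pathway is known in them for its part in ER stress. ATF4 is controlled largely at translation, so its mRNA level is not a measure of its protein.

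The promoters of several target genes carry the C/EBP-ATF response element, a composite site for ATF4 and a C/EBP partner. RefSeq promoter windows (build GRCm38.p6, 250 bases before to 50 after the transcription start) were found for 28 of the 34 genes. The letters TGATGNAAN, searched on both strands, stood in 10 of these 28 windows (35.7%), against 4.5% of 27025 genes with a window. The stricter letters TTGCATCA, also on both strands and lying within the first motif when they match, stood in 7 windows (25%) against 1.03% of genes. The letters CCACG, one part of the ER stress element, stood on either strand in 19 windows (67.9%) against 35.5% of genes. A match is a description of the letters and not a bound site, and the windows cover only the stated bases. The members were listed as ATF4 response genes, so their larger shares are not a finding of these arrays. The 250 bases before the start are shown for Chac1, Asns and Nupr1, whose array values are central below, with the TGATGNAAN match in capitals and each sequence written 5′ to 3′ on the gene's strand.
Chac1 (chr2:119350992-119351241, plus strand): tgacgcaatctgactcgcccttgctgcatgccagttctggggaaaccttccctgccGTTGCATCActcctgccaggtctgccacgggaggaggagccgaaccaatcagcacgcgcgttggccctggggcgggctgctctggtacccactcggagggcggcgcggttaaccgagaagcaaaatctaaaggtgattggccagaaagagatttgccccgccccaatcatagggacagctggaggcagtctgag
Asns (chr6:7693210-7693459, minus strand): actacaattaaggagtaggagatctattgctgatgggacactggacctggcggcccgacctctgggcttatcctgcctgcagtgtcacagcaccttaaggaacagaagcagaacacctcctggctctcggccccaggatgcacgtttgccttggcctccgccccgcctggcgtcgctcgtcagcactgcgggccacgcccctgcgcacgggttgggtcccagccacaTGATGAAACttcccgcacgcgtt
Nupr1 (chr7:126625471-126625720, minus strand): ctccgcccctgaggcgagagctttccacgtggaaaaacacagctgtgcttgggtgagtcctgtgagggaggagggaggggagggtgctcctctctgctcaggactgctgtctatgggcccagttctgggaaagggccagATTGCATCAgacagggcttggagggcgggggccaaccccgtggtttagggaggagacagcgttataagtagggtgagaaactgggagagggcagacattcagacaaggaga

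The matches of some other members are shown in a stretch of 29 bases each, because they let the shared core be compared between genes that did and did not separate the arrays. Capitals again mark the match.
Atf3 (chr1:191183426-191183454, minus strand): ccttctcgcaCTTGCATCAccaagtccgc
Slc7a11, first (chr3:50443661-50443689, minus strand): ctcatgtggcTGATGCAAAcctggagaat
Slc7a11, second (chr3:50443643-50443671, minus strand): acctggagaaTTTGCATCAtcatgcagcc
Vldlr (chr19:27216809-27216837, plus strand): agcagcaataGTTGCATCAgcgctcctag
Gars (chr6:55037960-55037988, plus strand): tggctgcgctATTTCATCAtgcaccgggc
Trib3 (chr2:152344029-152344057, minus strand): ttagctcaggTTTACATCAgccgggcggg
The matches of Chac1, Nupr1, Atf3, Slc7a11 and Vldlr held the stricter letters. So did a match of Aars, which is not shown and whose gene separated the arrays. Those of Asns, Gars and Trib3 fitted TGATGNAAN only, and the Trib3 match lay after the transcription start. Fgf21, which was too dim to measure, also held the stricter letters.

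No member passed the test of MPE against vehicle. The 32 measured members had a median difference, MPE minus vehicle, of -0.02 on the log2 scale, and the median over all 22102 genes was also -0.02. Of the 32, 10 were higher and 22 lower, from -0.21 for Slc7a5 to 0.08 for Ddit3. This comparison used no block. Vehicle had replicates 1 to 3 and MPE replicates 1 to 4, so replicates 1 and 2 weighed more in the vehicle mean. The members ran higher on those replicates, as described below. With replicate number as a block the members' median was 0.02, and with slide column as a block 0.04. The test was limma over all genes with Benjamini-Hochberg adjustment at 0.05. It called 0 members, where it called 0.00452% of all genes as higher and 0% as lower. The 1 gene called was Olfr867, an olfactory receptor gene that no vehicle array detected well above background. At an unadjusted limma p under 0.05 it found 0 members and 4.12% of all genes. The smallest p of a member was 0.237, for Stc2 (adjusted p 1.00). No member had every MPE array above every vehicle array, which 1.17% of all genes did, or every MPE array below, which 3.36% did. The 95% intervals of all 32 differences lay within 2-fold, the widest being that of Ddit4 at -0.84 to 0.66. These intervals do not show that the levels were the same.

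**Figure D1:**
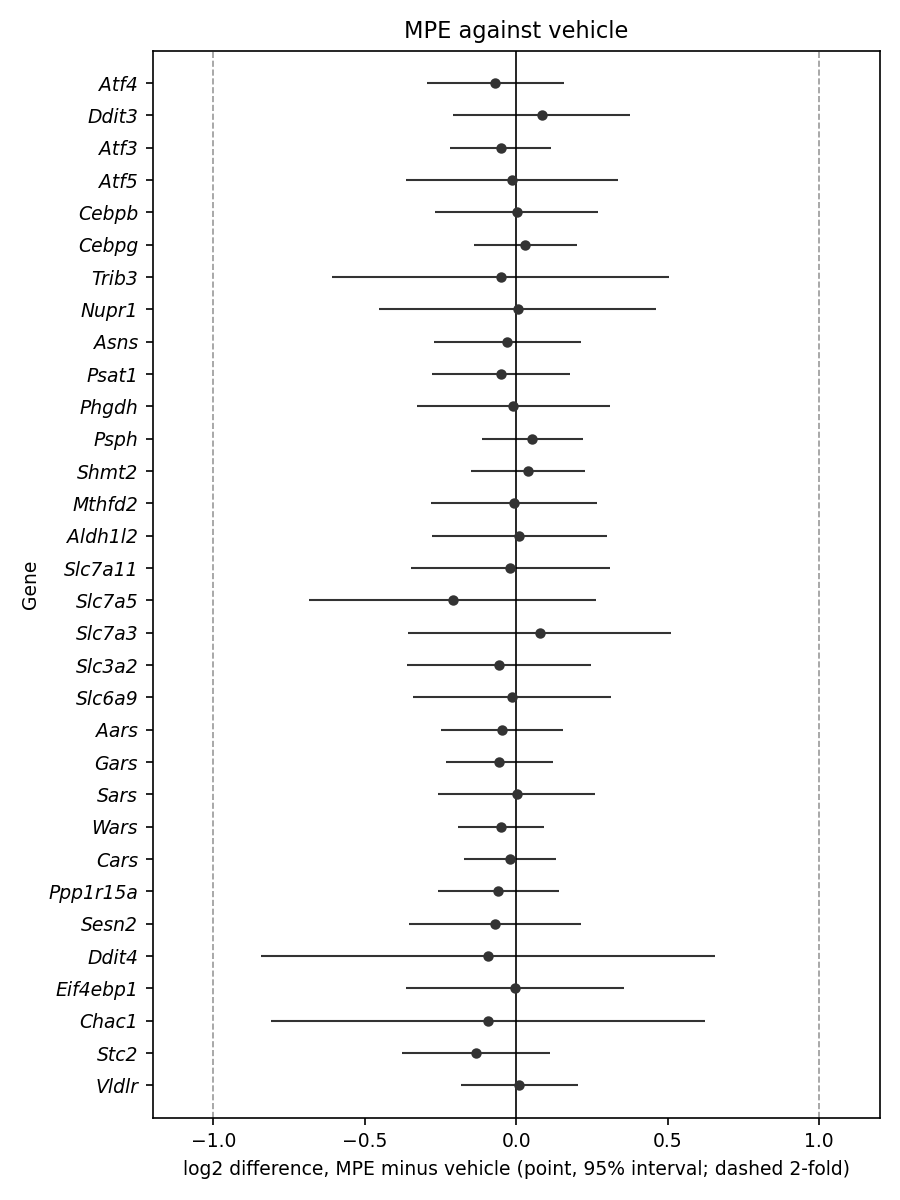
Log2 difference between MPE (4 arrays) and vehicle (3 arrays) for the 32 measured genes, with points for the difference, lines for the limma 95% interval and dashed lines at 2-fold. All intervals cross 0, and those of Ddit4, Chac1, Slc7a5 and Trib3 are the widest.

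Inside each treatment the members' levels spread between replicates. On the log2 scale the members were higher on replicates 1 and 2 than on the other arrays by a median of 0.22 (1.16-fold), 0.16 within vehicle and 0.27 within MPE, where the median over all genes was 0.01. The differences ranged from -0.04 (Cebpg) to 0.71 (Chac1). Of the 32 members, 29 were higher on replicates 1 and 2 in both treatments, as were 39% of all genes, and 0 were lower in both, as were 31.9%. In 20 members all 4 arrays of replicates 1 and 2 lay above the other 3, as in 16.1% of all genes, and 0 lay below, as in 11.7%. With quantile normalization or the authors' value table the count fell from 20 to 11 (12.9% of all genes), 10 of them among the 20. Taking each gene's probe with the lowest mean gave 15 (15.1% of all genes). The rule that chose the members used this contrast, so nothing is read from these shares. In this bulk RNA, fewer cells making a transcript and less of it per cell cannot be told apart.

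**Figure D2:**
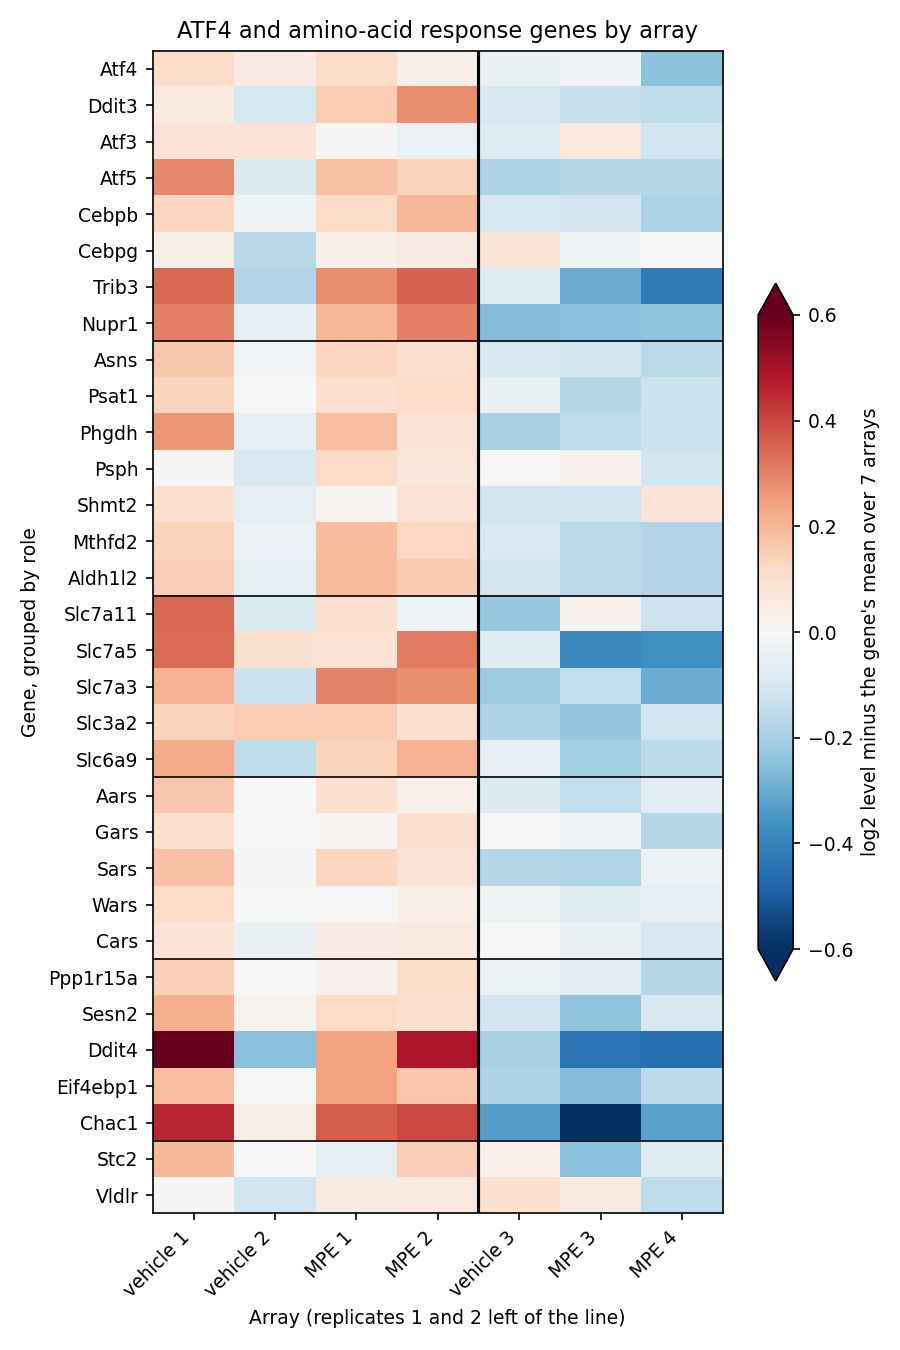
Each of the 32 measured genes (rows, grouped by role) on each of the 7 arrays (columns), coloured by the log2 level minus the gene's own mean over the arrays. Vehicle 1, MPE 1 and MPE 2 are red in most rows, vehicle 2 is nearer the mean, and the 3 arrays right of the line are mostly blue.

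The arrays did not split cleanly by replicate number. Vehicle replicate 1 had all 32 members above their own mean over the arrays, MPE replicate 1 had 31 and MPE replicate 2 had 30. Vehicle replicate 2 had 11, vehicle replicate 3 had 3, MPE replicate 3 had 4 and MPE replicate 4 had 1. Vehicle replicate 2 thus stood with neither side, with a median deviation of -0.03 against 0.11 to 0.15 on the 3 high arrays and -0.15 to -0.09 on the 3 low ones. Vehicle replicate 1 exceeded vehicle replicate 2 in 31 members and vehicle replicate 3 in 30, and vehicle replicate 2 exceeded replicate 3 in 23. Within MPE, replicates 1 and 2 each exceeded replicates 3 and 4 in 30 to 32 members. Between MPE replicates 1 and 2 the members were split 15 to 17, and between replicates 3 and 4 they were split 17 to 15. Over all genes, the first array of each of these pairs was higher in 51.4% to 56.2%.

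**Figure D3:**
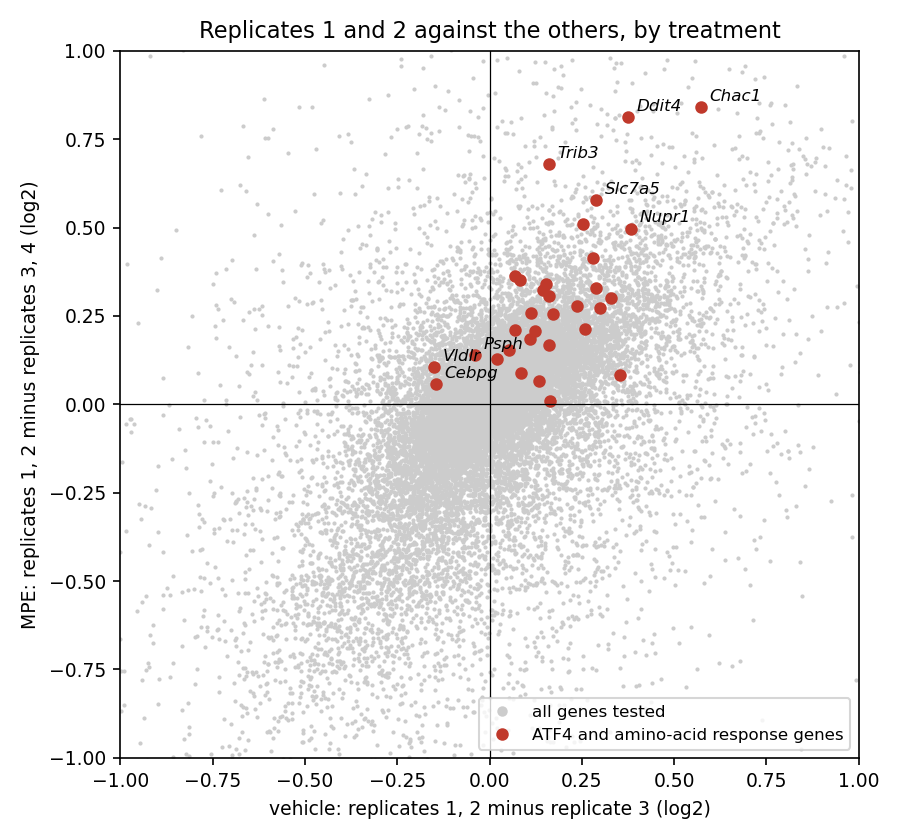
Within-treatment log2 difference of replicates 1 and 2 from the other arrays, vehicle on the horizontal axis and MPE on the vertical axis, for all genes (grey; 517 of 22099 lie outside the axes) and the 32 members (red). Of the members, 29 are in the upper right part, with Chac1 and Ddit4 farthest out, and Cebpg, Psph and Vldlr are left of 0 for vehicle.

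The transcription factors and regulators had a median difference of 0.22 between replicates 1 and 2 and the others, with 4 of 8 members above on all arrays. Atf4 mRNA read 7.66, 7.59 and 7.50 (log2, relative to the array's 75th percentile) in vehicle replicates 1 to 3, and 7.66, 7.58, 7.53 and 7.30 in MPE replicates 1 to 4. The 4 arrays of replicates 1 and 2 lay above the others, and MPE replicate 4 was the lowest. Its difference between treatments was -0.07 (SE 0.09), inside that spread. A second probe of Atf4 gave -0.06 for replicates 1 and 2 against the others where the first gave 0.17, so the direction of Atf4 depends on the probe. The separation on the first probe also depended on the normalization. That probe overlapped with quantile normalization and in the authors' value table, where its difference was 0.05.

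Nupr1, a small stress-induced chromatin protein, read 5.98, 5.62 and 5.42 in vehicle and 5.88, 5.98, 5.43 and 5.44 in MPE. The arrays of replicates 1 and 2 all lay above the other 3, by 0.44 on average (1.36-fold), while MPE and vehicle overlapped. Trib3, a pseudokinase induced by ATF4 that feeds back on it, read 4.11, 3.58 and 3.68 in vehicle and 4.04, 4.12, 3.46 and 3.34 in MPE. Here vehicle replicate 2 fell among the low arrays, so that the difference was 0.16 in vehicle against 0.68 in MPE. Trib3 did not differ between treatments beyond its replicate spread (-0.05, SE 0.23). Atf5, a relative of ATF4 that acts with it in stress, read 6.85, 6.49 and 6.38 in vehicle and 6.74, 6.71, 6.40 and 6.39 in MPE. All arrays of replicates 1 and 2 were above, by 0.31. Atf5 overlapped with quantile normalization or the authors' value table.

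Ddit3, which encodes the stress factor CHOP, read 1.13, 0.97 and 0.98 in vehicle and 1.23, 1.35, 0.93 and 0.92 in MPE. MPE replicates 1 and 2 were its 2 highest arrays and MPE replicates 3 and 4 its lowest, with all vehicle arrays in between. Cebpb, a C/EBP partner of ATF4, was higher by 0.23 on replicates 1 and 2 with no overlap. Atf3, a stress-induced repressor, was higher by 0.09 with overlap, nearly all of it within vehicle (0.16, against 0.01 within MPE). Cebpg, the other C/EBP partner in the set, was the exception among the regulators, with -0.15 in vehicle and 0.06 in MPE. Its values overlapped, 2.06, 1.86 and 2.10 in vehicle against 2.00 to 2.07 in MPE.

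The enzymes of serine, glycine, asparagine and one-carbon metabolism had a median difference of 0.21, and 5 of 7 lay above on all arrays. Asns, which makes asparagine from aspartate, read 7.55, 7.37 and 7.29 in vehicle and 7.52, 7.49, 7.27 and 7.23 in MPE. Its arrays of replicates 1 and 2 lay above the others by 0.21, and its treatments differed by -0.03 (SE 0.10). A second Asns probe was higher by 0.18 with overlap. Phgdh, the first enzyme of serine synthesis, read 6.16, 5.84 and 5.70 in vehicle and 6.08, 5.98, 5.74 and 5.77 in MPE, again with replicates 1 and 2 on top. Psat1, the next enzyme of that route, was higher by 0.19 with no overlap, whereas Psph, its last enzyme, was higher by 0.05 with overlap and was lower by 0.04 within vehicle. Of these 3 serine-synthesis genes, 2 thus lay above on all arrays and 1 did not. With quantile normalization or the authors' value table all 3 overlapped, as did Asns.

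In mitochondrial one-carbon metabolism, Mthfd2 and Aldh1l2 separated the arrays on the probe used and Shmt2 did not. Mthfd2, a folate dehydrogenase and cyclohydrolase, read 3.43, 3.25 and 3.20 in vehicle and 3.48, 3.41, 3.13 and 3.11 in MPE. Aldh1l2, which oxidizes formyl-tetrahydrofolate, read 2.95, 2.74 and 2.70 in vehicle and 3.00, 2.96, 2.65 and 2.63 in MPE. Both had all arrays of replicates 1 and 2 above, by 0.23 and 0.25. A second probe of each, also well above background on all arrays, overlapped, with differences of 0.10 and 0.18. Shmt2, which turns serine into glycine, was at 3.98 on both MPE replicate 2 and MPE replicate 4 and overlapped.

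The amino-acid transporters had a median difference of 0.31, with 3 of 5 above on all arrays. Slc7a5, the exchanger of large neutral amino acids, read -1.06, -1.31 and -1.47 in vehicle and -1.31, -1.09, -1.79 and -1.77 in MPE. Replicates 1 and 2 lay above the other arrays by 0.43 (1.35-fold), and MPE replicates 3 and 4 were the lowest. Its treatment difference of -0.21 (SE 0.20, limma p 0.330, adjusted p 1.00) was the most negative of the members and did not exceed the replicate spread. Slc3a2, the heavy chain that pairs with Slc7a5 and Slc7a11, read 6.09, 6.11 and 5.77 in vehicle and 6.11, 6.05, 5.73 and 5.84 in MPE. In this gene vehicle replicate 2 stood with the high arrays.

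Slc7a3, a transporter of cationic amino acids, read 3.96, 3.62 and 3.54 in vehicle and 4.05, 4.03, 3.61 and 3.46 in MPE, a difference of 0.38 with vehicle replicate 2 only just above the low arrays. Slc6a9, a glycine transporter, was higher by 0.22 with overlap through vehicle replicate 2. Slc7a11, which exchanges cystine for glutamate, read -2.91, -3.34 and -3.48 in vehicle and -3.16, -3.29, -3.23 and -3.38 in MPE. Only vehicle replicate 1 stood above the rest, and on no array was the second Slc7a11 probe well above background. With quantile normalization or the authors' value table, Slc7a3 overlapped, while Slc7a11 had all arrays of replicates 1 and 2 above.

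The tRNA synthetases, which load amino acids onto tRNAs, had a median difference of 0.10, and 4 of 5 lay above on all arrays. Sars, for serine, read 6.73, 6.55 and 6.38 in vehicle and 6.68, 6.63, 6.37 and 6.52 in MPE, with all of replicates 1 and 2 above. The alanine enzyme gene Aars was higher by 0.16, the glycine enzyme gene Gars by 0.10 and the tryptophan enzyme gene Wars by 0.09, without overlap. A second Wars probe was higher by 0.04 with overlap. The sign of Gars changed in 2 of 16 alternative settings, down to -0.03. With quantile normalization or the authors' value table, all 5 synthetase genes overlapped. Cars, for cysteine, was higher by 0.07 with overlap.

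The feedback genes of translation, mTORC1 (the growth kinase complex that senses amino acids) and redox balance had a median of 0.35, the largest of the role groups, with 4 of 5 above on all arrays. Chac1, an enzyme that breaks down glutathione, read 5.89, 5.47 and 5.11 in vehicle and 5.80, 5.83, 4.84 and 5.11 in MPE. Every array of replicates 1 and 2 was above the other 3, by 0.57 within vehicle and 0.84 within MPE, 1.63-fold on average and the widest of the members. Its treatments differed by -0.09 (SE 0.30). Ddit4, an inhibitor of mTORC1, read 5.23, 4.38 and 4.43 in vehicle and 4.87, 5.12, 4.19 and 4.18 in MPE. Replicate 1 of vehicle and replicates 1 and 2 of MPE were high, but vehicle replicate 2 lay below vehicle replicate 3, so its 1.51-fold difference came with overlap.

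Eif4ebp1, a repressor of cap-dependent translation, read 5.27, 5.08 and 4.89 in vehicle and 5.32, 5.25, 4.82 and 4.92 in MPE, a 1.27-fold difference with no overlap. Sesn2, a leucine sensor that restrains mTORC1, read 3.05, 2.85 and 2.71 in vehicle and 2.95, 2.93, 2.59 and 2.73 in MPE, also with no overlap. Ppp1r15a, the stress-induced phosphatase subunit that reverses eIF2 phosphorylation, was higher by 0.15 on replicates 1 and 2, again without overlap. The MPE differences of the 5 genes lay between -0.09 and 0, and none passed the test.

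**Figure D4:**
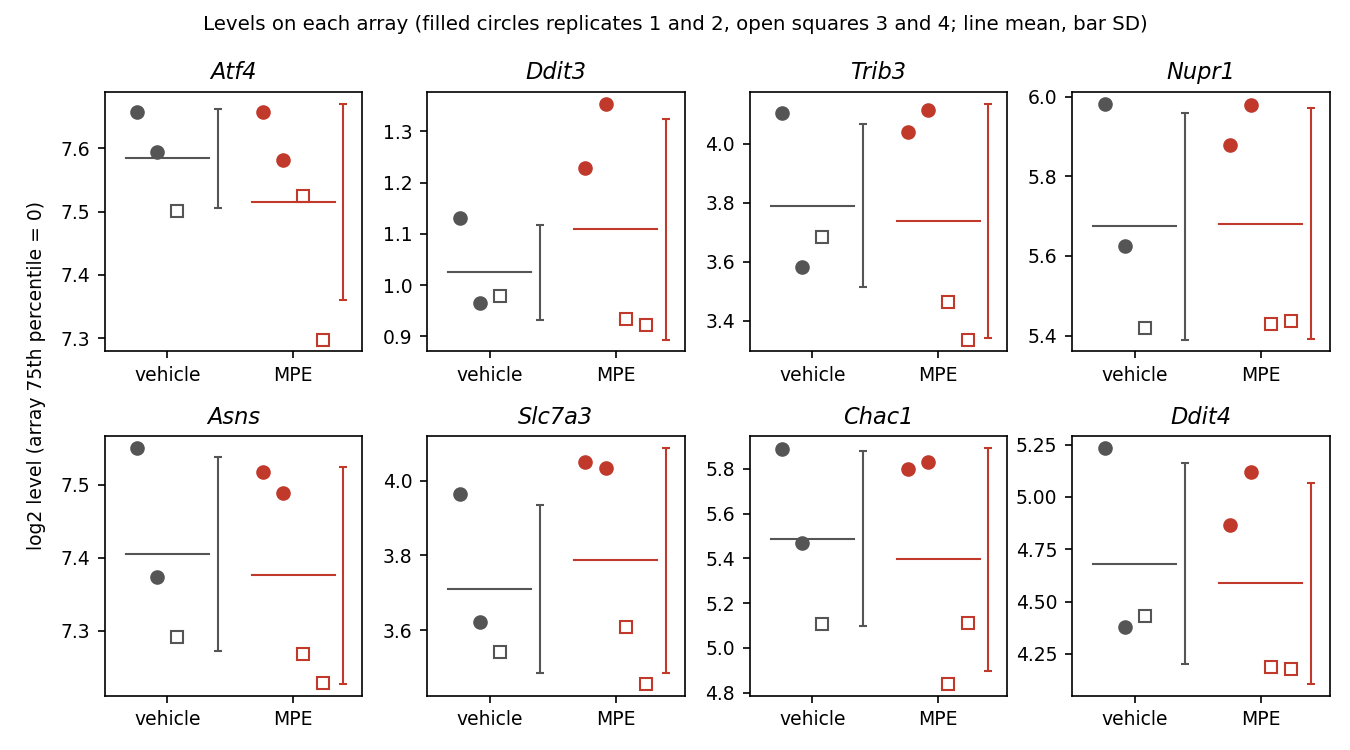
Log2 level of 8 genes on each array (filled circles, replicates 1 and 2; open squares, replicates 3 and 4), with a line for the group mean and a bar for its SD (3 vehicle, 4 MPE arrays). In MPE the filled and open symbols are apart in every panel, least in Atf4, while in Ddit3, Trib3 and Ddit4 vehicle replicate 2 sits with or below replicate 3.

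Neither measured gene of the secreted factors and the receptor separated the arrays. Stc2, a secreted glycoprotein, lay between -1.03 and -0.83 in vehicle and between -1.28 and -0.88 in MPE, and its groups overlapped on both contrasts. Vldlr, a lipoprotein receptor, read 4.85, 4.72 and 4.94 in vehicle and 4.89, 4.90, 4.90 and 4.69 in MPE, and its difference between replicates 1 and 2 and the others was -0.02. A second Vldlr probe gave 0.11, and the sign changed in 6 of 16 alternative settings. Fgf21 and Gdf15, the other secreted members, were too dim to compare.

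The replicate differences were set beside the response-element matches. The 9 measured members with TGATGNAAN in their window had a median difference of 0.21 between replicates 1 and 2 and the others, and the 17 measured members with a window but no match had 0.22. Chac1, with the stricter letters, had the largest difference, while Vldlr and Atf3, also with the stricter letters, were among the smallest. This is a description with no test.

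The difference between MPE and vehicle was also taken within each side of the replicate contrast. Between replicates 1 and 2 of both treatments, 22 members stood higher in MPE against 10 lower (median 0.04), where 9801 of all genes were higher and 12301 lower. Among the other arrays, 8 members stood higher in MPE against 24 lower (median -0.05), where 9646 of all genes were higher and 12453 lower. The vehicle side of the second contrast is 1 array, vehicle replicate 3. In 3 members (Ddit3, Vldlr and Aldh1l2) the MPE arrays lay all above vehicle on the first side and all below it on the second, and 9.8% of all genes had such a pattern in either direction. An interaction term in limma tested each gene for a treatment difference that depended on the side, with 3 residual degrees of freedom. It called 0 members and 0.00453% of all genes (1 gene, Hip1r), and at an unadjusted p under 0.05 it found 0 members and 4.03% of all genes. The smallest interaction p of a member was 0.0890, for Ddit3 (adjusted p 0.999).

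Some properties of the genes and arrays were set beside the replicate contrast, and their part in it was not tested. Bright genes tended to be higher on replicates 1 and 2. In the brightest of 5 equal groups of genes, 30.2% had all arrays of replicates 1 and 2 above the others and 5.14% had all below, against 5.2% and 11.6% in the dimmest. Of the members, 21 lay in the brightest group, and 15 of these 21 were above. Their median difference was 0.21, against 0.05 over all genes of that group. Of 12 housekeeping references, 4 were above and 0 below, with a median of 0.13. Actb was higher by 0.28 with no overlap and Gapdh by 0.23 with overlap, and Pgk1 had the smallest p of the references for MPE (limma p 0.0936, adjusted p 1.00; lower by 0.16). The 75th percentile of signal was 324, 334, 370 and 383 on replicates 1 and 2 and 380, 419 and 369 on the other arrays. Spike-in signal had a median of 393 to 463 on replicates 1 and 2 and of 355 to 548 on the others. Neither of these signals separated the arrays.

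Cell markers were read on the same arrays. The 16 beta-cell markers, of which 15 were measured, had a median difference of 0.11 between replicates 1 and 2 and the others, with 7 above and 1 below. Their summed level, in multiples of the array's 75th percentile, was 4977 to 5750 on replicates 1 and 2 and 4416 to 4831 on the others. Ins1, 1 of the 2 insulin genes, was higher by 0.25 and the islet factor Nkx2-2 by 0.26, both with no overlap. Ins2, the other insulin gene, had the smallest p of these markers for MPE (limma p 0.119, adjusted p 1.00), with a difference of -0.18. Of 14 markers of other islet, exocrine and duct cells, 5 were measured, with 1 above and 2 below, and 7 were well above background on no array, among them the exocrine genes Cpa1, Prss2, Pnlip, Amy2b and Ptf1a. Their summed level was 49.1 to 51.8 on replicates 1 and 2 and 48.8 to 55.4 on the others.

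Of the measured markers, the widest difference was that of Ppy. This gene, which encodes pancreatic polypeptide, read 3.01, 2.30 and 1.41 in vehicle and 2.93, 2.97, 1.28 and 1.52 in MPE. All arrays of replicates 1 and 2 lay above the others, by 1.40 on the log2 scale, and vehicle replicate 2 was in between. Sst, which encodes somatostatin, went the other way, with 3.66, 4.00 and 4.38 in vehicle and 3.78, 3.72, 4.18 and 4.39 in MPE. Spp1, a duct marker, had the smallest p of this list for MPE (limma p 0.474, adjusted p 1.00). Of 18 markers of stromal, endothelial and immune cells, 7 were measured, with 1 above and 2 below, and 6 were well above background on no array, including Col1a1, Col3a1 and Lyz2. The T-cell gene Cd3e was higher by 0.60 and the collagen gene Col1a2 lower by 0.26 on replicates 1 and 2, both with no overlap. The list's summed level was 25.4 to 31.6 on replicates 1 and 2 and 25.1 to 26.9 on the others.

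The same markers were compared between the treatments. Their summed level was 26.9 to 31.6 in vehicle and 25.1 to 26.7 in MPE, with no overlap. Of the 7 measured, 3 had every MPE array below every vehicle array, as in 3.36% of all genes, and these 3 had an unadjusted limma p under 0.05. They were the integrin gene Itgam (-0.35, SE 0.09, p 0.00671, adjusted p 0.988), the actin-binding gene Tagln (-0.34, SE 0.10, p 0.0107, adjusted p 1.00) and the endothelial gene Esam (-0.21, SE 0.06, p 0.0136, adjusted p 1.00). None passed the adjusted test. Of the 7, 4 were lower with MPE and 3 higher (Cd68, Acta2 and Cd3e), by 0.10 at most. Itgam, at 3.82 to 4.39 over the arrays, read highest of the 7 and weighed most in the summed level. Tagln, Esam, Cd68 and Acta2 were named after their values were seen.

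The other genes of the pathway were read from lists around the members. No gene of any of them passed the test between MPE and vehicle, and counts below are for replicates 1 and 2 against the others, with no test. Of 17 genes for the eIF2 kinases, eIF2, eIF2B and its phosphatase, which lie upstream of ATF4, the median difference was 0.01, with 4 above and 0 below. The largest were Ppp1r15b, the constitutive counterpart of Ppp1r15a, at 0.23, and the initiation factor Eif2d at 0.15. For MPE their smallest p was that of Eif2b1, an eIF2B subunit, which was lower by 0.13 (limma p 0.0714, adjusted p 1.00).

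The 18 genes listed with the other cytosolic tRNA synthetases include Aimp1, Aimp2 and Eef1e1, which encode complex partners of these enzymes. These 18 genes had a median of 0.08, with 6 above and 1 below, led by Mars1 (0.20) and Nars (0.18). Lars had their smallest p for MPE (limma p 0.203). The 18 measured of 23 genes listed with the other amino-acid transporters, among them the tRNA exporter gene Xpot, had a median below 0.01. Of these 18, 1 was above and 2 below. Slc1a4, for alanine, serine and cysteine, was higher by 0.41 with overlap, MPE replicate 2 at 1.73 being far above its other arrays at 0.40 to 0.88. Slc38a7, a lysosomal glutamine transporter, was higher by 0.36 with no overlap.

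Among 27 measured of 30 other genes of amino-acid and one-carbon metabolism the median was 0.01, with 5 above and 1 below. Pck2, the mitochondrial form of the enzyme that makes phosphoenolpyruvate, read 4.96, 4.67 and 4.63 in vehicle and 4.90, 4.91, 4.54 and 4.54 in MPE, above by 0.27 with no overlap. Gldc, part of the glycine cleavage system, was lower by 0.51 with overlap. The 24 genes of amino-acid sensing and mTORC1 had a median of 0.03, with 5 above and 4 below, from -0.43 for Nprl2, a GATOR subunit that restrains mTORC1, to 0.58 for Akt1s1, an inhibitory subunit of the complex.

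The 25 measured of 27 other ATF4 partners, stress factors and autophagy genes had a median of 0.02, with 5 above and 0 below. Jdp2, a leucine-zipper repressor, was higher by 0.46 and Jund, an AP-1 subunit, by 0.24, both with no overlap. The 21 ER chaperones had a median of 0.04, with 4 above and 3 below. Hyou1 was lower by 0.26 with overlap and Calr, calreticulin, was higher by 0.24 with none. Across these lists the smallest p for MPE was above 0.05 in every case (Slc7a6 0.188, Cbs 0.141, Tsc1 0.148, Nbr1 0.237 and Hsp90b1 0.118, all limma, adjusted p 1.00).

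**Figure D5:**
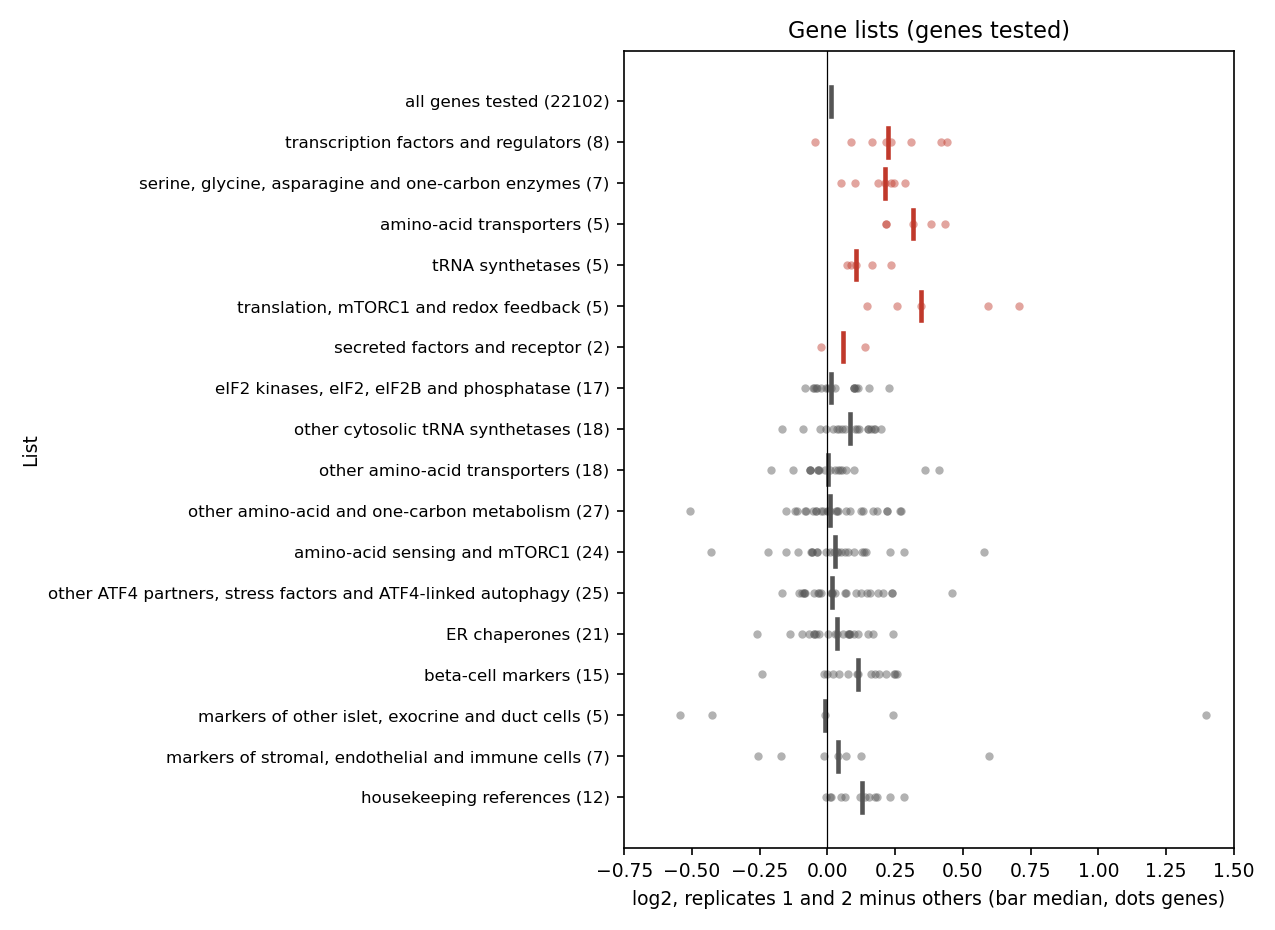
Log2 difference of replicates 1 and 2 from the other arrays for the role groups of the members (red) and the other lists (grey), with dots for genes, bars for list medians, the number measured in brackets, and the median of all genes on top. The members' bars lie at 0.06 to 0.35 and those of the other lists at -0.01 to 0.13; the members were chosen on this contrast.

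Members were not equally alike over the 7 arrays. After the mean of each treatment was removed, the correlation of a member with the mean of the other members was highest for Asns and Nupr1 (both r = 0.989) and Aldh1l2 (0.988). It was lowest for Cebpg and Atf3 (both 0.31) and Vldlr (0.32), and Atf4 itself stood at 0.77. These correlations are over 7 arrays that share a slide, and the members were picked for this pattern, so they carry no p. Of the genes outside the set, Cldn12, a claudin, and Pck2 were most like the members' mean (both r = 0.998). Next came Gprc5c, an orphan receptor (0.997), Bhlhe40, a helix-loop-helix repressor (0.996), and Bptf and St8sia3 (both 0.996). Rps14 (0.995), Rnf186, Nop10 and Fam120c (0.994 each) completed the 10 closest.

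Likeness in pattern came with different sizes. Gprc5c read 2.68, 2.26 and 2.07 in vehicle and 2.70, 2.75, 2.05 and 2.03 in MPE, a 1.46-fold difference of replicates 1 and 2 from the others. Bhlhe40 read 1.00, 0.53 and 0.37 in vehicle and 0.85, 0.97, 0.25 and 0.18 in MPE, also 1.46-fold. In both genes vehicle replicate 2 lay nearer to vehicle replicate 3 than to vehicle replicate 1, as in the members' mean. Both were picked for likeness to that mean, so this follows from the choice. The ribosomal protein gene Rps14 had the same order of arrays as Bhlhe40, with a difference of 0.10.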

How the data were processed

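RNA was measured on 1-colour (Cy3) Agilent arrays. Spot intensities in the deposited files were background-subtracted and detrended by Agilent Feature Extraction, per the file headers (version 11.5.1.1 there, 10.5.1.1 in the submitters' processing notes). The deposited flags mark control, well above background, saturated and outlier spots. The authors' value table holds log2 values. Its columns correlated with log2 intensity of the same array at 0.99962 to 0.999973 and had medians of 4.43782 (4.43803 for vehicle replicate 3), so it is quantile normalized, uncentred per gene and runs in the same direction. No source used here names its tool.

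Levels are log2 processed intensities, averaged over a probe's spots without 611 outlier spot values, minus the array's 75th percentile. No spot was saturated. A probe was kept if it was well above background on 3 arrays or more. Symbols came from a RefSeq table (GRCm38.p6) by transcript, for 32994 of 56605 probes, and a gene is its probe with the highest mean. Where a gene had several probes, sizes could differ (Atf4 -0.06 and 0.17, Slc3a2 0.31 and 0.46, for replicates 1 and 2 against the others). Levels of different genes come from different probes and were not ranked against each other. The test of MPE against vehicle was limma 3.58.1 (R 4.3.3, lmFit, eBayes), Benjamini-Hochberg at 0.05 over 22102 genes. This fit was also run on simulated data with independent noise for each gene and array. Those data lacked the replicate pattern that genes share on the real arrays, so that run does not test the fit under it. The replicate contrast is the mean of the within-treatment differences. A gene is above or below where the arrays do not overlap.

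The members and lists were chosen with earlier results of these data known. All members are described. From each other list the genes named are those called for MPE, otherwise the gene with the smallest p, and the 2 largest same-sign differences in the replicate contrast; the 10 genes most like the members' mean are also named. Genes given only as markers at background were named after their values were seen. Alternatives were other scalings, filters, probe rules, variance models, blocks, arrays left out, the authors' table and normexp with an offset of 50, for which median spot intensity replaced the planned mean, not used here. The number of arrays limits the precision.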

Additional observations from a re-analysis of the deposited data

Results flagged for a closer look

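In MPE, the Vldlr level of replicate 4 (4.69) lay far from the other replicates (4.89 to 4.90), a gap of 0.969 of the group's range. It was the 1 such case in 32 groups of 4 arrays, where chance gives about 1.6.

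For 3 members the MPE arrays lay all on one side of vehicle among replicates 1 and 2 and all on the other side among the other arrays, where vehicle has 1 array. Such a pattern, in either direction, was found in 9.8% of all genes, against 3 of 32 members. The MPE difference in replicates 1 and 2 minus that in the others was 0.29 for Ddit3, 0.26 for Vldlr and 0.19 for Aldh1l2 on the log2 scale. The limma interaction term gave p of 0.0890, 0.155 and 0.241 (adjusted p 0.999 for each), so none passed.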

How the results depend on the processing

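No member was called for MPE in any of the 20 settings run, and the smallest adjusted p of a member was 0.489, for Fgf21 without the filter. The members' median difference for MPE ranged from -0.09 to 0.06, positive without vehicle replicate 1 (0.06), MPE replicate 3 (0.04) or MPE replicate 4 (0.02). After the mean of each treatment was removed, the same-numbered arrays correlated over all genes at 0.25, 0.05 and 0.41. No values for differently numbered arrays are given beside them, so they do not decide whether the numbers are pairs. The main test did not take the numbers as pairs, although replicates 1 and 2 also share a slide column across the groups. With the replicate block the members' median was 0.02 and with slide column as a block 0.04, and each called 0 genes. The members' median for replicates 1 and 2 against the others was 0.17 to 0.29. Median scaling moved the median of all genes from 0.01 to 0.08 there, with 25.7% above and 5.39% below.

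The number of genes called for MPE, 1, was 9996 with no filter (9648 higher, 348 lower), 0 with the filter on all 7 arrays or normexp, 3 with the lowest probe or a trended robust variance, and 4 with array weights. Leaving out 1 array gave 0 (any vehicle array), 3 (MPE replicate 1, 2 or 3) or 5 (MPE replicate 4). The interaction, 1 gene, gave 525 with no filter, 0 with the filter on all 7 arrays, 5 with the authors' table, 2 with a trended robust variance, and 1 to 4 with 1 array left out (2 without vehicle replicate 1, 4 without MPE replicate 3); without vehicle replicate 3 it could not be fitted. The 20 members above became 11 with quantile normalization or the authors' table and 13 with normexp. They became 15 with the lowest probe and 18 with the mean of a gene's probes. The percentile over probes well above background on all arrays gave 18, and median scaling gave 22. Leaving out 1 array gave 20 to 25. These counts were added after seeing the data. The causes were not tested.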
